A study of Homo sapiens with 12 samples.

Results

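The genes of the cytosolic ribosomal proteins were followed in cultures of enterocytes, which line the gut and take up nutrients, made from RPChiPS771, a line of human induced pluripotent stem cells. Members were the protein-coding genes outside chromosome Y that are named RPSA or carry an RPS, RPL or RPLP name, without the kinases, binding proteins and readthrough genes that share these letters. The rule found 85 of the 58735 genes in the deposited table, 32 with small subunit and 53 with large subunit names, and 8 of them are paralogs of another member. They lie on 21 chromosomes, with 12 genes on chromosome 19 and 4 on X. Cultures received neither compound (Control), 1 µM VD3 (vitamin D3), 100 µM VPA (valproic acid, an inhibitor of histone deacetylases) or both (VD3VPA), from day 15 to day 23 of differentiation. Each group had 3 libraries, and the comparisons address what each compound does to the differentiating cells, alone and together. All 12 libraries came from 1 cell line, and nothing in the labels says that libraries of a group were separate cultures, so p-values measure the spread between libraries, which may be technical.

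A ribosome is built in the nucleolus from ribosomal RNA and one copy of nearly every ribosomal protein, and each subunit is exported to the cytoplasm, where the joined ribosome makes protein. Because the proteins are needed in equal amounts, their genes are known to be regulated together, at transcription, where MYC is one activator, and at translation, through the pyrimidine-rich 5′ terminal oligopyrimidine (TOP) start of their mRNAs, which makes translation sensitive to mTOR signalling. In the intestinal epithelium, ribosome production is known to be high in dividing crypt cells and lower in mature absorptive cells.

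The start sequences show which members carry a TOP-like start at an annotated first base. A member without one there may still have a TOP start, as only annotated first bases were read. The RefSeq promoter table (GRCh38.p14) matched 68 of the 85 members, and 47 of these (69.1%) had at least one annotated start with a C at the first base followed by 4 or more C or T. The same was found for 5.16% of the 27195 genes in that table and 4.08% of its promoters. Each line gives 10 bases before the annotated first base and 20 from it on, 5′ to 3′ on the gene's strand. Capitals mark a run of at least 5 C or T that begins with C at the first base. The first 6 members have a run of that length, and the last 6, most of them paralogs, are shown because they do not. Of these, RPL3 has a shorter run of 4 bases and RPL36AL one of 3.
RPL22L1 (chr3:170870176-170870205, minus strand): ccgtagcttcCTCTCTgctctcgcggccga
RPL12 (chr9:127451387-127451416, minus strand): cgatttccggCCTCTCggctttcggctcgg
RPS6 (chr9:19380217-19380246, minus strand): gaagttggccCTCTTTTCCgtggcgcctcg
RPLP0 (chr12:120201092-120201121, minus strand): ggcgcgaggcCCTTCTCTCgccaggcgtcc
RPLP1 (chr15:69452808-69452837, plus strand): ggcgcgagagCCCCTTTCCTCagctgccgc
RPL41 (chr12:56116623-56116652, plus strand): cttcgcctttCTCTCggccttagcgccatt
RPL3 (chr22:39319604-39319633, minus strand): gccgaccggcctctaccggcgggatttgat
RPS26 (chr12:56041908-56041937, plus strand): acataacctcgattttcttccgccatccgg
RPS27L (chr15:63157458-63157487, minus strand): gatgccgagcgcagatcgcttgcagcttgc
RPL7L1 (chr6:42879606-42879635, plus strand): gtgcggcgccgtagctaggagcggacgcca
RPL26L1 (chr5:172958719-172958748, plus strand): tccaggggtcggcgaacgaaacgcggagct
RPL36AL (chr14:49620607-49620636, minus strand): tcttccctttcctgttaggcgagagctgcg
In the 300-base windows from 250 before to 50 after the start, on both strands, the E-box CACGTG was found in 7.35% of matched members and 8.79% of all genes in the table. The ETS-type string CCGGAAG was found in 35.3% of members and 12.2% of genes, and the YY1-type string AAGATGGC in 10.3% and 3.53%. In 3 members a window held both the E-box and the ETS-type string, in 2 the E-box and the YY1-type string, and in 1 the ETS-type and YY1-type strings. A match is a run of letters, not a shown binding site.

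Between 32160289 and 43998467 fragments per library fell on genes. Expression was read as FPKM, fragments scaled by gene length and by a factor per library, as deposited, and tested on log2(FPKM + 1). In all 12 libraries this factor was 0.995 of the median, over genes, of the ratio of fragments to the gene's mean over libraries. It was thus not the total of fragments, and such scaling largely holds the median change over all genes near 0. The filter of at least 1 FPKM in at least 3 libraries left 12561 genes and 82 members. RPS10, RPL10L and RPL3L did not pass. RPL36A passed through its 3 Control libraries and 1 VPA library, so its inclusion depended on the group where it is highest. Of the 18 enterocyte markers on the list used, 17 reached 1 FPKM in some library, and the brush border enzyme MGAM did not, while SI, its relative sucrase-isomaltase, reached at most 1.21 FPKM. Summed enterocyte markers stood at 8253 to 9902 FPKM in Control, 22241 to 27804 with VD3, 22501 to 24579 with VPA and 24289 to 27304 with VD3VPA. Of the 17 tested, 7 rose and 4 fell with VD3 (median log2 fold change 0.14), beside 31.3% and 31.2% of all tested genes. With VPA 9 rose and 3 fell (median 0.23), beside 29.6% and 23.1%. The 12 hepatocyte markers, led by AFP, were summed at 34029 to 41880 FPKM over all groups. Singly, 5 of them rose and 4 fell with VD3 (median -0.10), and 2 rose and 6 fell with VPA (median -0.36), beside the same shares of all tested genes. Mitochondrial genes held 5.45% to 5.66% of fragments in Control, 3.999% to 4.25% with VD3, 3.72% to 4.08% with VPA and 4.66% to 4.72% with VD3VPA, and their part in the results on the members was not tested. Each library pooled many cells, so fewer cells of a type and less RNA per cell cannot be told apart.

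The ribosomal protein genes took up far less of the RNA after VD3. Their share of all assigned fragments was 6.64%, 5.60% and 5.92% in the 3 Control libraries, 2.82%, 2.90% and 3.00% with VD3, 4.80%, 4.94% and 4.79% with VPA, and 3.43%, 3.52% and 3.52% with VD3VPA. No group overlapped another, and the order was Control, VPA, VD3VPA, VD3. The mean share with VD3 was 0.480 of Control, with VPA 0.800 and with VD3VPA 0.577, and VD3VPA stood at 1.202 times VD3. Control replicate 1 was the highest of the 12 libraries. The 95% Wilson interval of a share is at most 0.00854 percentage points to either side, and covers counting error only. The 1149 ribosomal protein pseudogene entries of the table, whose reads cannot always be told apart from those of their parent genes, held 0.215% of fragments in Control and 0.0987% with VD3. That was 3.34% to 3.60% of the members' fragments in every library, so the share going to pseudogenes moved with that of the members.

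**Figure D1:**
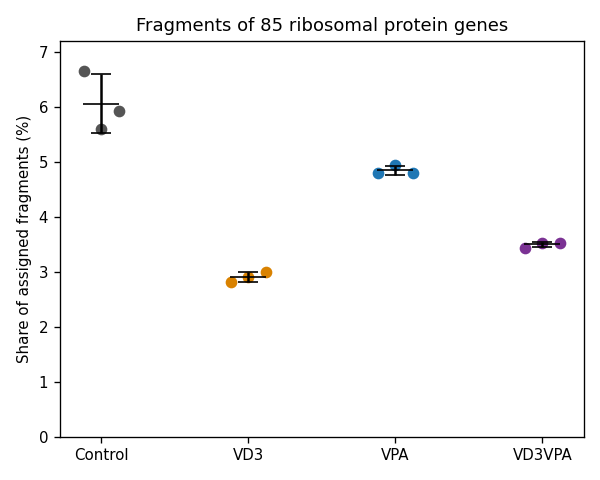
Share of assigned fragments (%) that fell on the 85 ribosomal protein genes, by library (points), with the group mean and SD (bars, n = 3). The 3 VD3 libraries lie between 2.82% and 3.00%, below every other library, and the Control libraries lie between 5.60% and 6.64%.

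VD3 alone lowered nearly the whole set. Of the 82 tested members, 81 fell against Control and 0 rose (limma with Benjamini-Hochberg adjustment over all 12561 genes, adjusted p under 0.05), beside 31.2% of all tested genes that fell and 31.3% that rose. No member rose at an unadjusted p under 0.05 or under voom on recovered fragments either. The median log2 fold change of the members was -0.91, 0.533 of the Control level, beside 0.00 over all tested genes. In 81 members every VD3 library lay below every Control library, beside 32.9% of all genes. At least 2-fold falls were seen in 32 members, and all tested genes were not counted at that threshold. The lower quartile of the log2 fold changes was -1.08 in the members and -0.24 over all tested genes. The medians of the subunits were close, with -0.91 over 30 small subunit and -0.93 over 46 large subunit members other than paralogs.

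The deepest falls were those of RPL22L1, RPS2, RPL5, RPS3 and RPL3. RPS2 (ENSG00000140988, chr16:1962052-1964860, minus strand), a small subunit protein near the mRNA entry site, had 806, 635 and 725 FPKM in Control, 235, 236 and 261 with VD3, 594, 607 and 579 with VPA, and 355, 349 and 348 with VD3VPA. Its groups did not overlap in any pair, and its log2 fold change with VD3 was -1.56 ± 0.08 (SE, limma adjusted p = 1.87e-08). RPS3, a small subunit protein that also lines the mRNA entry channel, fell by 1.29 on the log2 scale, and RPL3, a large subunit protein near the peptidyl transferase centre, fell by 1.28. RPL5 and RPL11 join the 5S ribosomal RNA and, when ribosome assembly fails, bind MDM2 and so stabilise p53. RPL5 had 246, 202 and 223 FPKM in Control, 86.6, 90.7 and 91.5 with VD3, 191, 193 and 179 with VPA, and 106, 105 and 107 with VD3VPA, and all 4 groups were separate. Its change with VD3 was -1.31 ± 0.06, and that of its partner RPL11 was -1.12 ± 0.08. RPS6, the target of the S6 kinases downstream of mTOR, had 525, 427 and 485 FPKM in Control and 201, 206 and 231 with VD3, a change of -1.16 ± 0.07. RPL10, which joins the large subunit late in its assembly, fell by 0.96, and RPL7, a large subunit protein, by 1.15. RPSA, a small subunit protein also known as a laminin receptor, fell by 1.13. RPS27A, made as a fusion with ubiquitin, fell by 0.80.

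**Figure D2:**
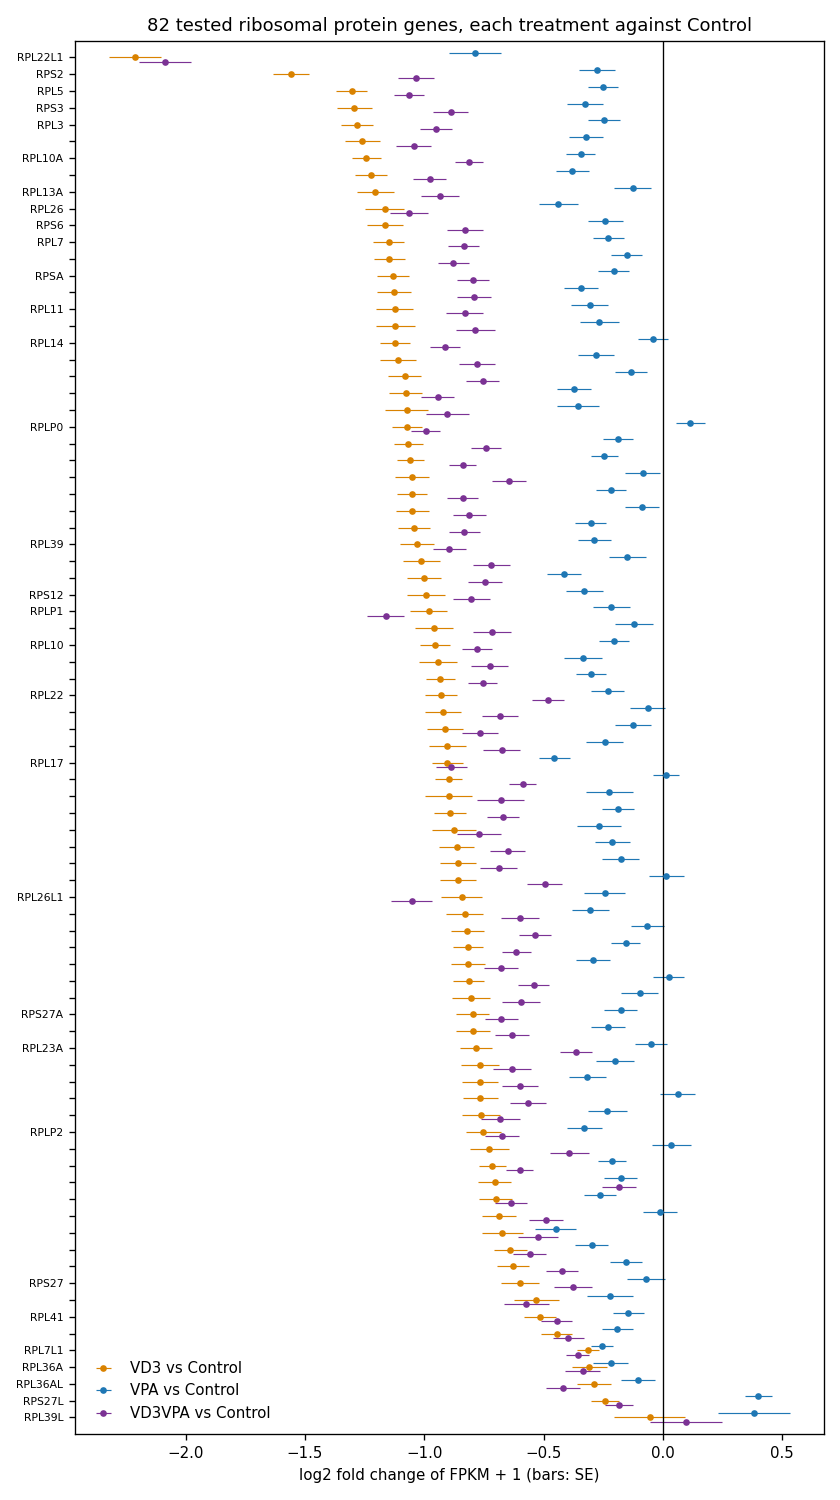
Log2 fold change of FPKM + 1 of the 82 tested members against Control, in order of the change with VD3, with SE as bars, and names only for members described in the text. VD3 points span -2.21 to -0.06, VD3VPA points lie mostly to their right, and VPA points lie nearest to 0, with RPS27L as the single called rise at 0.40.

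The smallest falls with VD3 were those of paralogs and of short proteins. RPL41, the smallest ribosomal protein (75 coding bases) and the member with the highest mean FPKM, had 1031, 865 and 923 FPKM in Control and 637, 690.2 and 639.9 with VD3. The groups were separate, but the change was -0.52 ± 0.07, against -1.21 for RPL13A and -0.99 for RPS12, the next highest in FPKM. RPS26, a small subunit protein at the mRNA exit, fell by 0.45. RPL36A, a large subunit protein, is counted among the 81 falls, but it passed the filter through the group where it is highest, so its fall is no separate support, and the pseudocount shrinks its fitted change (-0.31) where its mean FPKM with VD3 was 0.649 of Control. Across the 76 tested members other than paralogs, the change with VD3 had a Spearman rho of -0.58 with the coding length of the principal transcript, and one of -0.24 with the whole length of that transcript. The 19 members with the shortest coding sequence (75 to 369 bases) had a median of -0.83 and the 19 with the longest (624 to 1281 bases) one of -1.13. Over 10637 tested protein-coding genes rho was 0.09. With VPA alone it was 0.02 over the same 76 members. These are descriptions across genes of the same 6 libraries, and genes are not independent replicates. By TOP-like start, as read at annotated first bases, the members were close. The median change was -0.94 in 45 members other than paralogs with such a start and -0.90 in 16 where none was found. Of other tested genes, 40.7% with such a start fell, beside 32.1% without.

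The paralogs, which are relatives of other members and in several cases are tissue-restricted, went different ways from one another. RPL22L1 (ENSG00000163584, chr3:170864875-170870483, minus strand), the paralog of the large subunit protein RPL22, had 31.3, 21.7 and 25.2 FPKM in Control, 4.69, 4.52 and 5.14 with VD3, 13.1, 15.5 and 15.1 with VPA, and 5.75, 5.08 and 5.10 with VD3VPA. Every treated library lay below every Control library, and those with VD3 below those with VPA alone. Its change with VD3 was -2.21 ± 0.11 (limma adjusted p = 2.13e-08), the lowest of the 82, where RPL22 changed by -0.93 ± 0.07. RPL22 itself had 36.9, 29.4 and 31.9 FPKM in Control, 16.1, 17.4 and 16.4 with VD3, 27.5, 28.6 and 26.7 with VPA, and 22.6, 23.3 and 23.2 with VD3VPA. Its order of groups was that of most members, with VD3VPA clearly above VD3, whereas the RPL22L1 libraries of VD3 and VD3VPA overlapped.

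RPS27L (ENSG00000185088, chr15:63125872-63158021, minus strand), a paralog of RPS27 known as a p53 target, had 13.3, 12.4 and 11.97 FPKM in Control, 10.55, 11.2 and 9.63 with VD3, 16.8, 17.75 and 16.15 with VPA, and 11.1, 11.1 and 10.6 with VD3VPA. Its VPA libraries lay above all others, which was seen for no other tested member against Control. It rose by 0.40 ± 0.06 with VPA and fell by 0.24 with VD3, where RPS27 changed by -0.07 (limma adjusted p = 0.492) and by -0.60. RPL39L (ENSG00000163923, chr3:187120948-187180908, minus strand), a paralog of the exit tunnel protein RPL39 known for its testis expression, had 2.49, 2.71 and 1.68 FPKM in Control, 2.52, 2.41 and 1.57 with VD3, 2.54, 3.57 and 3.74 with VPA, and 2.63, 2.47 and 2.36 with VD3VPA. All its groups overlapped with Control, and it was the one tested member that did not pass with VD3 (-0.06 ± 0.15, limma adjusted p = 0.766), from 241 to 352 fragments a group. RPL39 went from 168, 136 and 145 FPKM in Control to 69.7, 75.05 and 73.0 with VD3, a change of -1.03. RPL36AL fell by 0.29 with VD3 and RPL7L1 by 0.31, while RPL26L1 fell by 0.84, beside 1.17 for RPL26. In FPKM, RPL36AL (mean of 249.9 in Control) stood far above RPL36A (1.202). The annotated body of RPL36A overlaps the readthrough gene RPL36A-HNRNPH2 over 5144 bases, that of RPS10 overlaps RPS10-NUDT3 over 8618 bases and that of RPL17 overlaps RPL17-C18orf32 over 4027 bases. These readthrough genes are listed at 0 fragments in all libraries, and the part of this overlap in the low levels of RPL36A, RPS10 (0.211 to 0.681 FPKM) and RPL17 was not tested. RPL10L and RPL3L, known as tissue-restricted paralogs, reached at most 0.314 and 0.0613 FPKM.

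**Figure D3:**
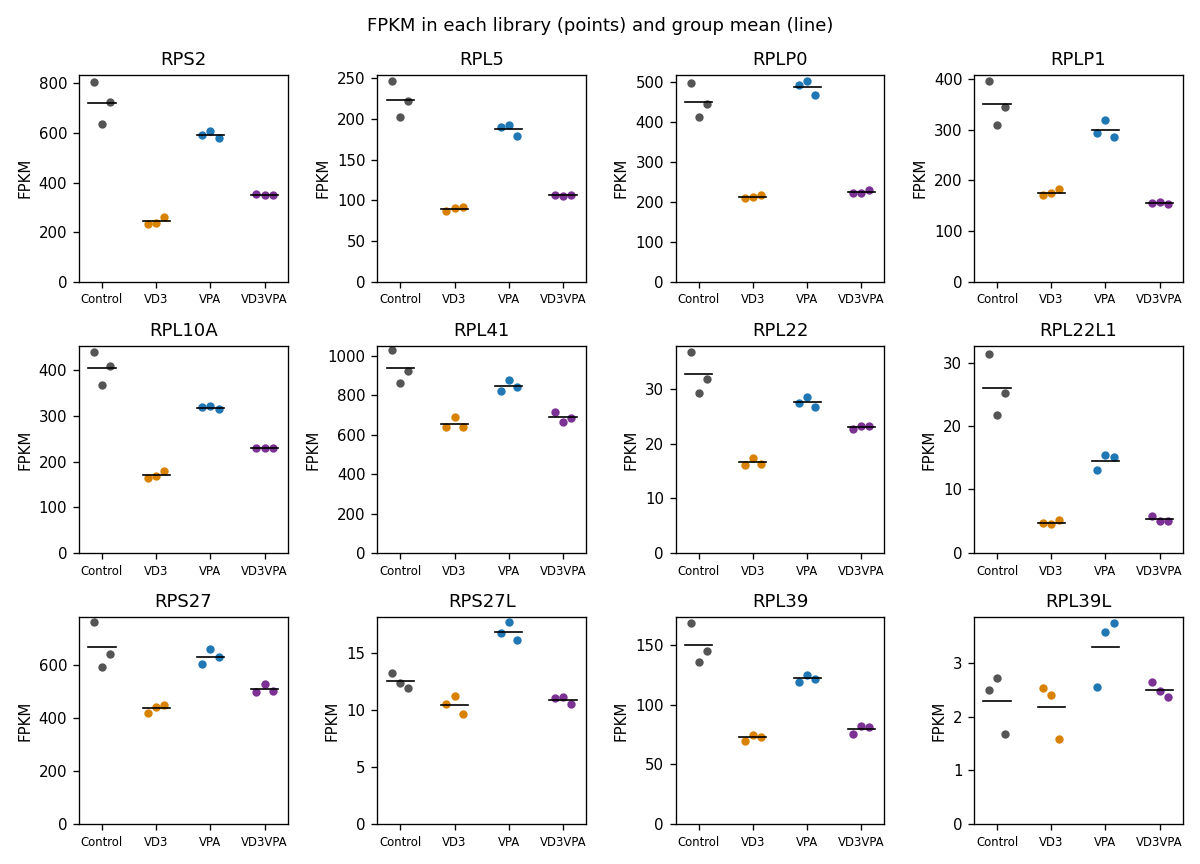
FPKM of 12 members in each library (points) with the group mean (lines), on axes that start at 0. RPS2, RPL5 and RPL22 show the common order of Control, VPA, VD3VPA and VD3, RPL22L1 falls to 4.52 to 5.75 FPKM in every library with VD3, RPS27L is highest with VPA, and RPLP0 is as high with VPA as in Control.

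VPA alone had a smaller effect on the members. Against Control, 50 of 82 fell, beside 23.1% of all tested genes, 1 rose (RPS27L), beside 29.6%, and 31 did not pass. Without adjustment for multiple tests, 58 fell and 2 rose at p under 0.05, and voom called 56 falls and 2 rises. The median log2 fold change was -0.22, 0.858 of Control, and no member changed 2-fold. In 47 members all VPA libraries lay below all Control libraries, beside 25.6% of all genes. Among the largest falls were those of RPL22L1 (-0.79 ± 0.11), RPL17 (-0.46), an exit tunnel protein, and RPL26 (-0.44). The count moved with the scaling and with single libraries. With each library scaled to its own total of fragments 73 members fell, with a median of -0.34, and with equal FPKM sums 70. Without Control replicate 1 there were 35, with a median of -0.14, without VPA replicate 1 there were 38, and without VPA replicate 3 there were 39. Fitted without the other groups, 33 fell. Own totals also turned the split of all tested genes to 20.7% higher and 36.0% lower, and equal FPKM sums to 23.4% and 29.8%.

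The stalk proteins, which recruit the translation factors to the large subunit and of which RPLP0 is the base, did not move together. RPLP0 (ENSG00000089157, chr12:120196686-120201235, minus strand), a common reference gene in quantitative PCR, had 497, 412 and 445 FPKM in Control, 211, 213 and 217 with VD3, 492, 504 and 468 with VPA, and 222, 223 and 231 with VD3VPA. The VPA libraries overlapped with Control, and both groups with VD3 lay between 211 and 231 FPKM. Its changes were -1.07 ± 0.06 with VD3 and 0.12 ± 0.06 with VPA (limma adjusted p = 0.139), and with own fragment totals the latter was -0.010. RPLP1 (ENSG00000137818, chr15:69452784-69456194, plus strand) had 396, 309.9 and 345 FPKM in Control, 170.4, 174 and 183 with VD3, 294, 319.8 and 286 with VPA, and 155, 157 and 153 with VD3VPA. It was lowest with both compounds, its VD3VPA libraries lying below those of VD3, which among the tested members was shared by 1 other, RPL26L1. That difference did not pass (-0.18 ± 0.08, limma adjusted p = 0.0944). RPLP2 had 393, 311 and 346 FPKM in Control, 200.0, 209 and 209.6 with VD3, 272, 293 and 267 with VPA, and 218, 218 and 217 with VD3VPA, which is the common order of groups.

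With both compounds the members were again low against Control, but less so than with VD3 alone. VD3VPA against Control gave 81 falls, beside 33.1% of all tested genes, and 0 rises, beside 31.1%, with no rise at an unadjusted p under 0.05 or under voom, and a median of -0.70. In 81 members the libraries were separate, all below, beside 35.4% of all genes. The deepest falls were RPL22L1 (-2.09), RPLP1 (-1.16), RPL26 (-1.06), RPL5 (-1.06) and RPL26L1 (-1.05). In all, 7 members fell at least 2-fold, a threshold at which all tested genes were not counted. Set against VD3, VD3VPA had 45 members higher, beside 17.5% of all tested genes, and 0 lower, beside 17.2%, with a median of 0.21. Unadjusted, 53 were higher and 2 lower at p under 0.05, and voom called 50 and 0. In 65 members all VD3VPA libraries lay above those of VD3, beside 26.2% of all genes, and in 2 below, beside 25.1%. The count of calls fell to 25 without VD3 replicate 1 and to 27 without VD3VPA replicate 1, and without any low-value filter it was 28. Among the largest rises were RPS2 (0.52 ± 0.08), RPL22 (0.45), RPL10A (0.43) and RPL23A (0.42). The latter protein sits at the exit of the peptide tunnel.

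VD3 also lowered the members where VPA was present. VD3VPA against VPA gave 77 falls, beside 34.7% of all tested genes, 0 rises, beside 28.6%, and a median of -0.50, and no member rose at an unadjusted p under 0.05 or under voom. In 78 the libraries were separate, all below, beside 38.1% of all genes. RPL22L1 (-1.30), RPLP0 (-1.11), RPLP1 (-0.95), RPL14 (-0.87) and RPL5 (-0.81) fell most. RPL10A, a large subunit protein, had 439, 367 and 409.9 FPKM in Control, 164, 169 and 178 with VD3, 319, 321 and 314 with VPA, and 230.4, 229 and 229.6 with VD3VPA. All 4 groups were separate, with VD3VPA between VPA and VD3. Its change with VD3 was -1.24 ± 0.06 without VPA and -0.47 ± 0.06 with it.

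The difference between both effects of VD3 was tested as an interaction, the change with VD3 in the presence of VPA minus that in its absence. It was positive and called in 67 members, beside 19.0% of all tested genes, and negative and called in 1 (RPS27L, -0.34 ± 0.08), beside 25.3%, with a median of 0.42. The largest values were RPL22L1 (0.91 ± 0.16), RPS2 (0.80), RPL10A (0.78) and RPS3 (0.73). With own fragment totals the median of all tested genes moved from -0.01 to 0.11 and the split of calls to 32.6% higher and 16.0% lower, and with equal FPKM sums to 24.2% and 19.2%, and 75 and 73 members were then called positive. In 78 of 82 members the change with VD3 was larger without VPA, and the change with VPA was 0.537 of that without at the median. The pair of effects shares no library, and over the 82 members they had a Pearson r of 0.72 and a Spearman rho of 0.72, as a description. RPLP0 (-0.04 ± 0.09) and RPLP1 (0.04 ± 0.11) had interactions near 0 that did not pass, and the sign of the first turned with own fragment totals (0.12).

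**Figure D4:**
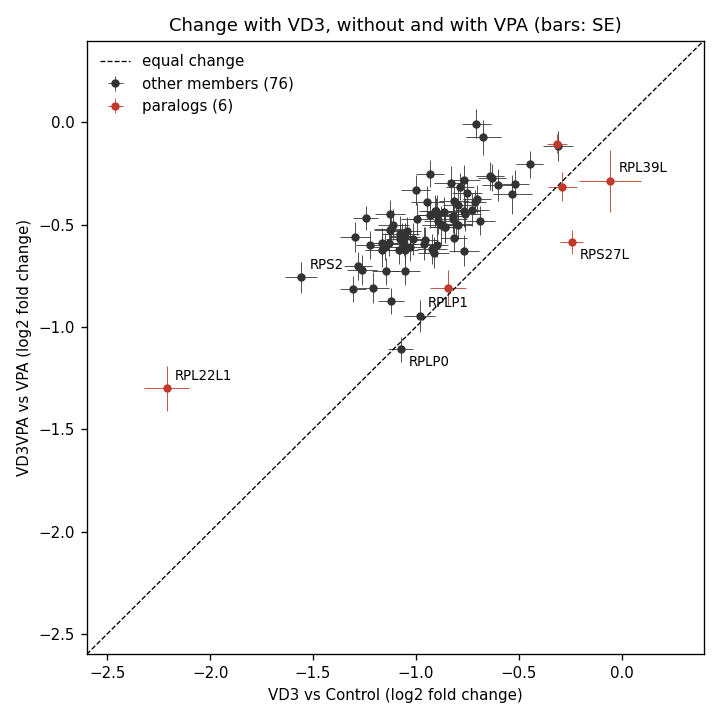
Log2 fold change with VD3 in the absence of VPA (x axis) and in its presence (y axis) for the 82 tested members, with SE as bars and a dashed line of equal change. Points lie above the line in 78 members, and RPLP0, RPL36AL, RPL39L and RPS27L lie below the line.

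Each library was also set to the median of its tested members other than paralogs, which gives every member relative to the others and does not depend on the scaling between libraries. On this relative scale 34 members fell further than the others with VD3 and 17 less far, beside 2.10% and 91.5% of all tested genes, and with VPA 8 and 15, beside 5.75% and 48.5%. Departures downward and upward numbered 32 and 17 for VD3VPA against Control, beside 4.12% and 84.2%, 8 and 12 against VD3, beside 39.2% and 4.39%, and 32 and 14 against VPA, beside 8.56% and 69.5%. RPL22L1 departed by -1.35 with VD3 and -0.57 with VPA, and RPS2 by -0.70 and, with VPA, -0.06. RPL39L departed by 0.80, RPS27L by 0.62 and RPL41 by 0.34 with VD3. RPLP0 departed by 0.33 ± 0.05 with VPA (limma adjusted p = 7.07e-05) and by -0.67 between VD3VPA and VPA. For the interaction, 11 members departed upward and 9 downward, beside 2.52% and 61.9% of all tested genes, with RPLP0 at -0.45 and RPLP1 at -0.38.

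Other parts of the translation machinery were read against the shares of all tested genes, with VD3 31.2% lower and 31.3% higher, with VPA 23.1% lower and 29.6% higher, and for the interaction 19.0% positive. FAU and RACK1 also make ribosomal components but carry other names, and fell by 0.57 and 1.30 on the log2 scale. Of 14 tested translation factors and partners known for TOP mRNAs, 13 fell and 1 did not pass, with a median of -0.84, led by EIF3E (-1.20), EIF2S3 (-1.02) and EEF1B2 (-1.25). The elongation factors EEF1A1 (-0.90) and EEF2 (-1.002) fell about as far as the members, TPT1 by 0.24, and PABPC1 (-0.11) did not pass. With VPA this list had 2 rises and 3 falls, with a median of -0.03. Of 63 ribosome assembly genes 60 fell with VD3, with a median of -0.69, led by NPM1, a nucleolar chaperone, at -1.65, with WDR12 at -0.98 and NOLC1 at -1.24. FBL, the rRNA methyltransferase, was at -1.61. With VPA 55 of the 63 fell, with a median of -0.40, including NOP56 (-1.10) and GNL3 (-0.95), and 53 had a positive interaction. The 10 non-coding hosts of small nucleolar RNAs all fell with VD3, with a median of -1.18, among them SNHG8 (-1.40) and GAS5 (-1.27), and SNHG1 fell by 1.10 with VPA as well. Of 17 subunits and factors of RNA polymerase I, 13 fell with VD3, with a median of -0.29, led by POLR1A (-0.69), POLR1E (-0.79) and POLR1B (-0.71). Initiation factors (22 of 30 fell, 4 rose, median -0.33) and mitochondrial ribosomal proteins (55 of 75 fell, 3 rose, median -0.29) moved less than the members, as did the RNA polymerase I list.

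**Figure D5:**
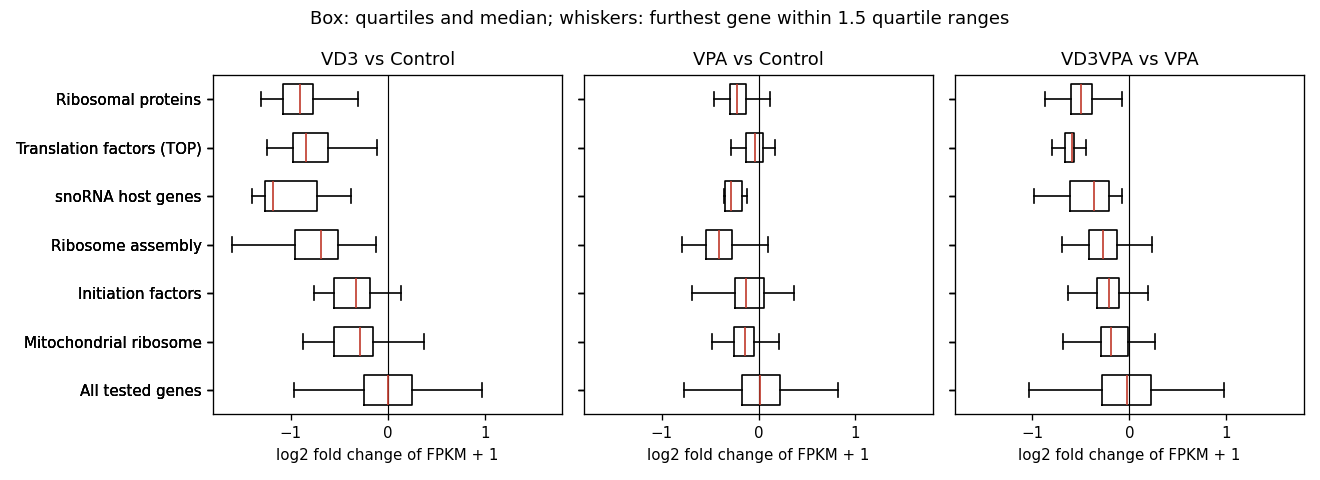
Log2 fold changes of FPKM + 1 in 7 sets of tested genes for 3 comparisons, with boxes for quartiles, red lines for medians and whiskers to the furthest gene within 1.5 quartile ranges. With VD3 the medians run from -1.18 for the small nucleolar RNA hosts and -0.91 for the ribosomal proteins to 0.00 for all genes, and with VPA ribosome assembly has the lowest median at -0.40.

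Among known regulators, MYC had 12.96, 10.6 and 11.1 FPKM in Control, 2.35, 1.95 and 1.10 with VD3, 5.79, 4.75 and 6.54 with VPA, and 0.617, 0.599 and 1.09 with VD3VPA. Its change with VD3 was -2.19. Its highest library with VD3VPA (1.09 FPKM) was barely below its lowest with VD3 alone (1.10 FPKM), near the filter minimum of 1 FPKM. DDIT4, an inhibitor of mTOR signalling, rose by 2.03 with VD3 and by 0.70 with VPA, and SESN2, another, rose by 0.61 with VD3. In the list of 18 mTOR and ribosomal protein regulators 5 rose and 7 fell with VD3, shares near those of all tested genes (31.3% and 31.2%), and MTOR (-0.05) and LARP1 (-0.03), a TOP mRNA binding protein, did not pass. Proliferation markers moved too: of 10 tested, 9 fell with VD3 and 9 with VPA, and their summed level was 41.4 to 51.9 FPKM in Control, 24.7 to 25.4 with VD3, 24.7 to 26.5 with VPA and 32.3 to 32.9 with VD3VPA. Summed mesenchymal markers were at 69.6 to 78.9 FPKM in Control, 155 to 219 with VD3, 144.5 to 174 with VPA and 193 to 217 with VD3VPA. Of 6 tested, 3 rose with VD3 (median log2 fold change 0.30) and 2 with VPA (median 0.02), beside 31.3% and 29.6% of all tested genes, and 0 fell. Summed pluripotency markers were at 5.56 to 6.25 FPKM in Control, 3.73 to 4.57 with VD3, 6.21 to 6.77 with VPA and 4.93 to 5.41 with VD3VPA. Only 4 of these 8 genes reached 1 FPKM in some library, and 2 were tested. Other intestinal cell markers were summed at 46.3 to 49.4 FPKM in Control, 16.7 to 20.6 with VD3, 21.97 to 28.8 with VPA and 12.4 to 15.4 with VD3VPA. Only 3 of these 12 genes reached 1 FPKM in some library, and 2 were tested, so the sum rests on few genes. The part of these in the change of the members was not tested.

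Between members, FPKM depended on the gene length used, which counts all annotated exons. In Control, the order of the 85 members by FPKM and that by fragments per kilobase of principal transcript had a Spearman rho of 0.88, with RPL41 in place 1 by the former and place 9 by the latter, where RPS27 came first. By FPKM RPL41, RPL13A and RPS12 had Control means of 939.5 ± 84.2, 916 ± 119.7 and 870.3 ± 113 (SD, n = 3). RPS12 was below both others in each Control library, while the order of RPL41 and RPL13A differed between libraries. These differences between genes were not tested.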

How the data were processed

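Per the labels' protocols, libraries were made from poly-A selected RNA using NEBNext Ultra reagents. HISAT2 2.0.5, featureCounts 1.5.0-p3 and DESeq2 1.20.0 appear in the submitters' processing notes, as does GRCh38.p13. Which step each served, and the strand setting, is not given in the sources used here, so overlapping and antisense genes may share reads. The authors deposited FPKM values per gene and library. Multiplied by gene length and a library constant, they gave whole fragments for 100% of values within 0.01, and these were used for shares and for voom. limma 3.58.1 (R 4.3.3) was fitted to log2(FPKM + 1) of all 12561 genes outside chromosome Y that reached 1 FPKM in 3 or more libraries, with 1 mean for each of 4 groups and a trended prior, and was tested on simulated data. P-values were adjusted by Benjamini-Hochberg within each of 6 comparisons. Replicate pairs differed beyond sampling noise (chi-square of 3.40 to 17.0 per gene). Coding lengths came from a GENCODE annotation (GRCh38) and start sequences from RefSeq (GRCh38.p14). Named were, in each comparison, the 5 largest called rises and falls whose libraries do not overlap (not asked of the interaction), the paralogs with their partners, the stalk proteins, 6 other set members, the 3 highest in FPKM, and, from the pathway lists, at most 3 by lowest adjusted p and several set genes. RPS26, FBL, NOP56, GNL3, MTOR, LARP1 and PABPC1 were picked after their values were seen. Some genes that the rule names are not reported here. Members, lists and tests were chosen with earlier results of these data known. Alternatives changed the pseudocount, filter, scaling, gene length trend, unit, block, groups fitted and libraries. Python 3.11.15, pandas 2.3.3 and matplotlib 3.10.9 were used.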

Additional observations from a re-analysis of the deposited data

Results flagged for a closer look

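The change with VD3 differed between cultures without and with VPA, as tested by the interaction, in 68 of the 82 tested members. Of these, 67 were called positive and 1 negative, beside 19.0% and 25.3% of all tested genes. Among the largest positive values were RPL22L1 (0.91), RPS2 (0.80), RPL10A (0.78) and RPS3 (0.73), as log2 differences between the effects. The negative one was RPS27L (-0.34). Other members named above are among the 67 as well. Groups of 3 libraries were too small to call a single library an outlier. The counts with each library left out in turn are given below.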

How the results depend on the processing

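Of the counts of members called, 240 of 274 stayed within 1.5 times the reported count. Of the other 34, 12 come from scaling to the members' median, which by construction leaves departures from the set: higher and lower counts were 17 and 34 for VD3, 15 and 8 for VPA, 17 and 32 for VD3VPA against Control, 12 and 8 for VD3VPA against VD3, 14 and 32 against VPA, and 11 and 9 for the interaction (single members were given as departures instead). With no low-value filter, where 36401 genes were tested, 1 member was higher with VD3, 28 were higher and 1 lower between VD3VPA and VD3, and 2 were lower for the interaction, which was 0 with own fragment totals. Fitting 2 groups alone gave 33 falls with VPA and 1 between VD3VPA and VD3, as did equal FPKM sums for the latter; the interaction has no such fit. Quantile normalization gave 1 rise between VD3VPA and VPA and 2 with VPA. The latter count was also 2 with the length trend removed, the replicate block, both of these, and voom. The replicate block gave 48 falls with VPA, 38 rises between VD3VPA and VD3, and 61 positive interactions. Deviations of same-numbered libraries had correlations of -0.08 to 0.15 (median 0.021, over 0.1 in 3 of 18 pairs). Differently numbered libraries had correlations of -0.19 to 0.11 (median -0.016, over 0.1 in 2 of 36). These values do not settle whether the numbers pair the libraries. Leaving out 1 library gave 1 to 4 rises with VPA, 35 to 62 falls with VPA, and 25 to 55 rises and 0 to 1 falls between VD3VPA and VD3. Values near 0 changed sign: RPLP0 with VPA was -0.010 with own totals, and its interaction was 0.043 with equal sums and 0.12 with own totals. With 1 library left out, the ranges were -0.11 to 0.027 for the RPLP0 interaction, -0.056 to 0.12 for that of RPLP1, -0.20 to 0.087 for RPL39L with VD3 and -0.046 to 0.19 with VD3VPA. The causes were not tested. As a share of summed FPKM the members took 6.86%, 5.90% and 6.24% in Control and 3.12%, 3.18% and 3.31% with VD3. They took 5.16%, 5.24% and 5.24% with VPA, and 3.62%, 3.80% and 3.78% with VD3VPA. The mean with VD3 was 0.505 of Control on this measure, beside 0.480 by fragments. Depth limits the lowest members: RPL39L had 241 to 352 fragments a group, RPS10 94 to 189, RPL10L 4 to 21 and RPL3L 2 to 12.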
